A study of Mus musculus with 24 samples.

Results

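Etv1, Etv4, Etv5, Ets1 and Ets2 are the 5 ETS transcription factors whose proteins are known substrates of the ubiquitin ligase Cop1. They were taken by symbol from the 47480 genes of the count table, by a rule that names the genes and uses no measured value, though with earlier results of these data known. All 5 passed the filter on low counts that left 14772 genes for testing. ETS factors bind DNA through a conserved domain that reads a GGA core. Etv1, Etv4 and Etv5 form the PEA3 subfamily, whose transcription is switched on by receptor tyrosine kinase and ERK signalling and held down by the repressor Capicua. Ets1 and Ets2 are phosphorylated by ERK and activate genes of matrix breakdown and cell migration. Cop1 works with Det1, Ddb1 and a Cul4 scaffold, recognises a short valine-proline motif in its substrates and marks them for degradation. It therefore acts on ETS proteins, whereas the libraries described here report their transcripts; no protein was measured.

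RNA came from wild-type mouse embryonic fibroblasts, connective tissue cells derived from embryos. The 24 libraries form 8 groups of 3, from every combination of siCTRL or siCop1, DMSO or KL001, and no Dexa or Dexa. Here siCop1 is read as a small interfering RNA that knocks down Cop1 and siCTRL as its control. KL001, known to stabilise cryptochrome proteins, was set against its solvent DMSO, and Dexa is written as the labels have it. The series asks whether cryptochromes hold back assembly of the Cop1 ligase. All groups share the wild-type genotype; no dose or exposure time is stated in the labels, nor whether replicates were separate cultures, so p-values measure only the spread between these libraries.

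Totals ran from 21409988 to 27875023 counts per library, with a median of 25337292. Cop1, listed under its older symbol Rfwd2, was measured at 25.0 to 29.7 CPM (a gene's count relative to its library's total, on the usual scale) in the 12 siCTRL libraries and 4.33 to 5.79 CPM in the 12 siCop1 libraries. The 10 fibroblast markers summed to between 41246 and 58515 CPM in every library, and the 6 endothelial markers to at most 3.32 CPM. The 7 heart muscle markers varied widely among siCTRL libraries, where they summed to between 1.91 and 98.5 CPM. Within siCTRL DMSO with Dexa alone the sum ran from 1.91 to 98.5 CPM. In siCop1 libraries they summed to between 0.967 and 3.23 CPM, which overlaps the siCTRL range only when all conditions are pooled. With compound and Dexa matched, every siCop1 sum lay below every siCTRL sum. In DMSO these were 0.967 to 3.23 against 19.4 to 64.0 CPM, and with Dexa 1.49 to 1.74 against 1.91 to 98.5 CPM. In KL001 they were 1.17 to 1.31 against 1.94 to 90.5 CPM, and with Dexa 1.28 to 1.64 against 1.98 to 23.2 CPM. Myh6 was at 0 in siCop1 DMSO and siCop1 KL001 without Dexa, and Myh7 was also at 0 in the latter. The 6 neural markers summed to between 226 and 289 CPM without Dexa and between 345 and 442 CPM with it; of the 3 tested, 1 rose with Dexa in each comparison. In bulk RNA, fewer cells of a type and less RNA per cell cannot be told apart.

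Promoter sequence is shown for PEA3 genes because transcription is the step at which Capicua is known to hold them down. In the GRCm38 annotation Etv1 lies at chr12:38779380-38870484 on the plus strand, Etv4 at chr11:101769742-101785371 on the minus strand and Etv5 at chr16:22381309-22439719 on the minus strand. Ets1 lies at chr9:32636221-32757820 and Ets2 at chr16:95702075-95721051, both on the plus strand. RefSeq promoter entries (build GRCm38.p6) were matched for 3 of the 5 genes; Etv4 and Ets1 were not matched. The bases before a start site are given for the first Etv1 entry, chr12:38779832-38780081 on the plus strand, and for the second Etv5 entry, chr16:22438369-22438618 on the minus strand. Neither window overlaps an annotated exon of its gene, and each lies inside that gene, so both are intronic. Capitals mark each copy of the octamer TGAATGGG, on either strand, which is not one of the Capicua octamers searched.
Etv1 upstream: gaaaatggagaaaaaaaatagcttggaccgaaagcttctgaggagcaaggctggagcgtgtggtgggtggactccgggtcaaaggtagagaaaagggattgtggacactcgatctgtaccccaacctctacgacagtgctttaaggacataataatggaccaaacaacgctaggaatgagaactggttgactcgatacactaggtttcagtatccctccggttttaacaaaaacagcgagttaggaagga
Etv5 upstream: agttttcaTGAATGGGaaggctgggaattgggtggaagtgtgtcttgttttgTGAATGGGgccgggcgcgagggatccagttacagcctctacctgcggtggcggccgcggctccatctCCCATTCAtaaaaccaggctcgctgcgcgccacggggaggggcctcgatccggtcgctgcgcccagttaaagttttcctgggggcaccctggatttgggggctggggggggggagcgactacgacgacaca
The Etv5 window holds 3 copies, beginning 242, 198 and 131 bases before the start site, of which the last is on the other strand (CCCATTCA). Among all 32851 RefSeq promoter windows, which run from before to just after each start site, 1.08% hold the octamer on either strand and 1 window, this one, holds 3 or more. The octamer was added after the sequence had been read, so the count of windows is no independent test of it. The first Etv5 entry, not printed here, held no copy. Of the 4 Capicua octamers searched, TGAATGAA, TGAATGGA, TCAATGAA and TCAATGGA, found in 1.3%, 1.21%, 0.749% and 0.67% of windows, none is in the printed sequences. The letters CCGGAAG (8.86% of windows), TGANTCA (7.81%), CACGTG (7.15%) and the glucocorticoid receptor palindrome (0.0396%) are not in them either; TGANTCA and the octamers can share letters. The added octamer TGAATGGG differs from TGAATGGA in its last base only. Looser forms of the Capicua site were not searched, so their absence is not shown. A match describes letters only.

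Levels between genes were compared as CPM per kilobase of merged exon, in siCTRL DMSO without Dexa. Ets2 stood at 11.4 ± 0.278 (SD, n = 3), Etv4 at 10.4 ± 0.135, Ets1 at 9.63 ± 0.375 and Etv5 at 6.44 ± 0.261 on this scale. Etv1 was far lower, at 0.227 ± 0.0259. Among 26 ETS family genes these levels ranked 5, 7, 8, 12 and 17, and the repressor Elk3 was highest at 47.8 ± 0.961. With Dexa in the same cells Etv5 stood at 2.92 ± 0.0997 and Etv4 at 6.91 ± 0.274, while Ets2 was 11.5 ± 0.697 CPM per kilobase.

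**Figure D1:**
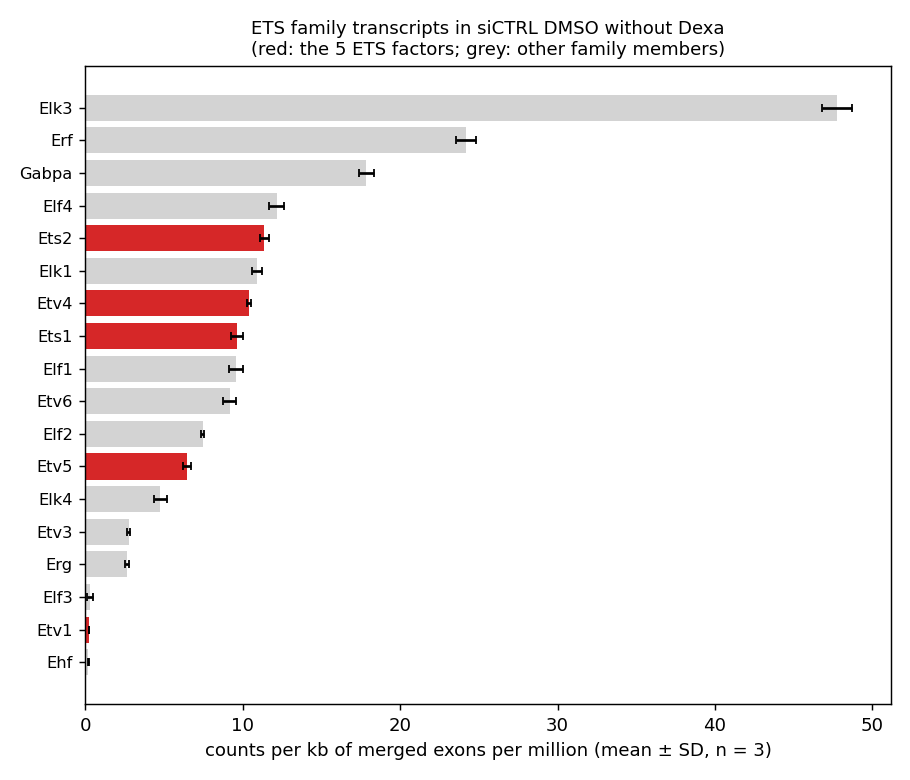
Mean CPM per kilobase of merged exon (horizontal axis; error bars are SD, n = 3 libraries) for the 18 most abundant ETS family genes in siCTRL DMSO without Dexa. Red bars are Etv1, Etv4, Etv5, Ets1 and Ets2; Ets2, Etv4, Ets1 and Etv5 lie between 6.44 and 11.4, and Etv1 at 0.227.

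Within each gene, levels are given as CPM on the TMM scale, a scaling that equalises libraries by their common genes. Etv5 had the widest range, its highest group mean being 2.70 times its lowest. The corresponding ratio was 1.76 for Etv1, 1.68 for Etv4, 1.48 for Ets1 and 1.12 for Ets2.

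**Figure D2:**
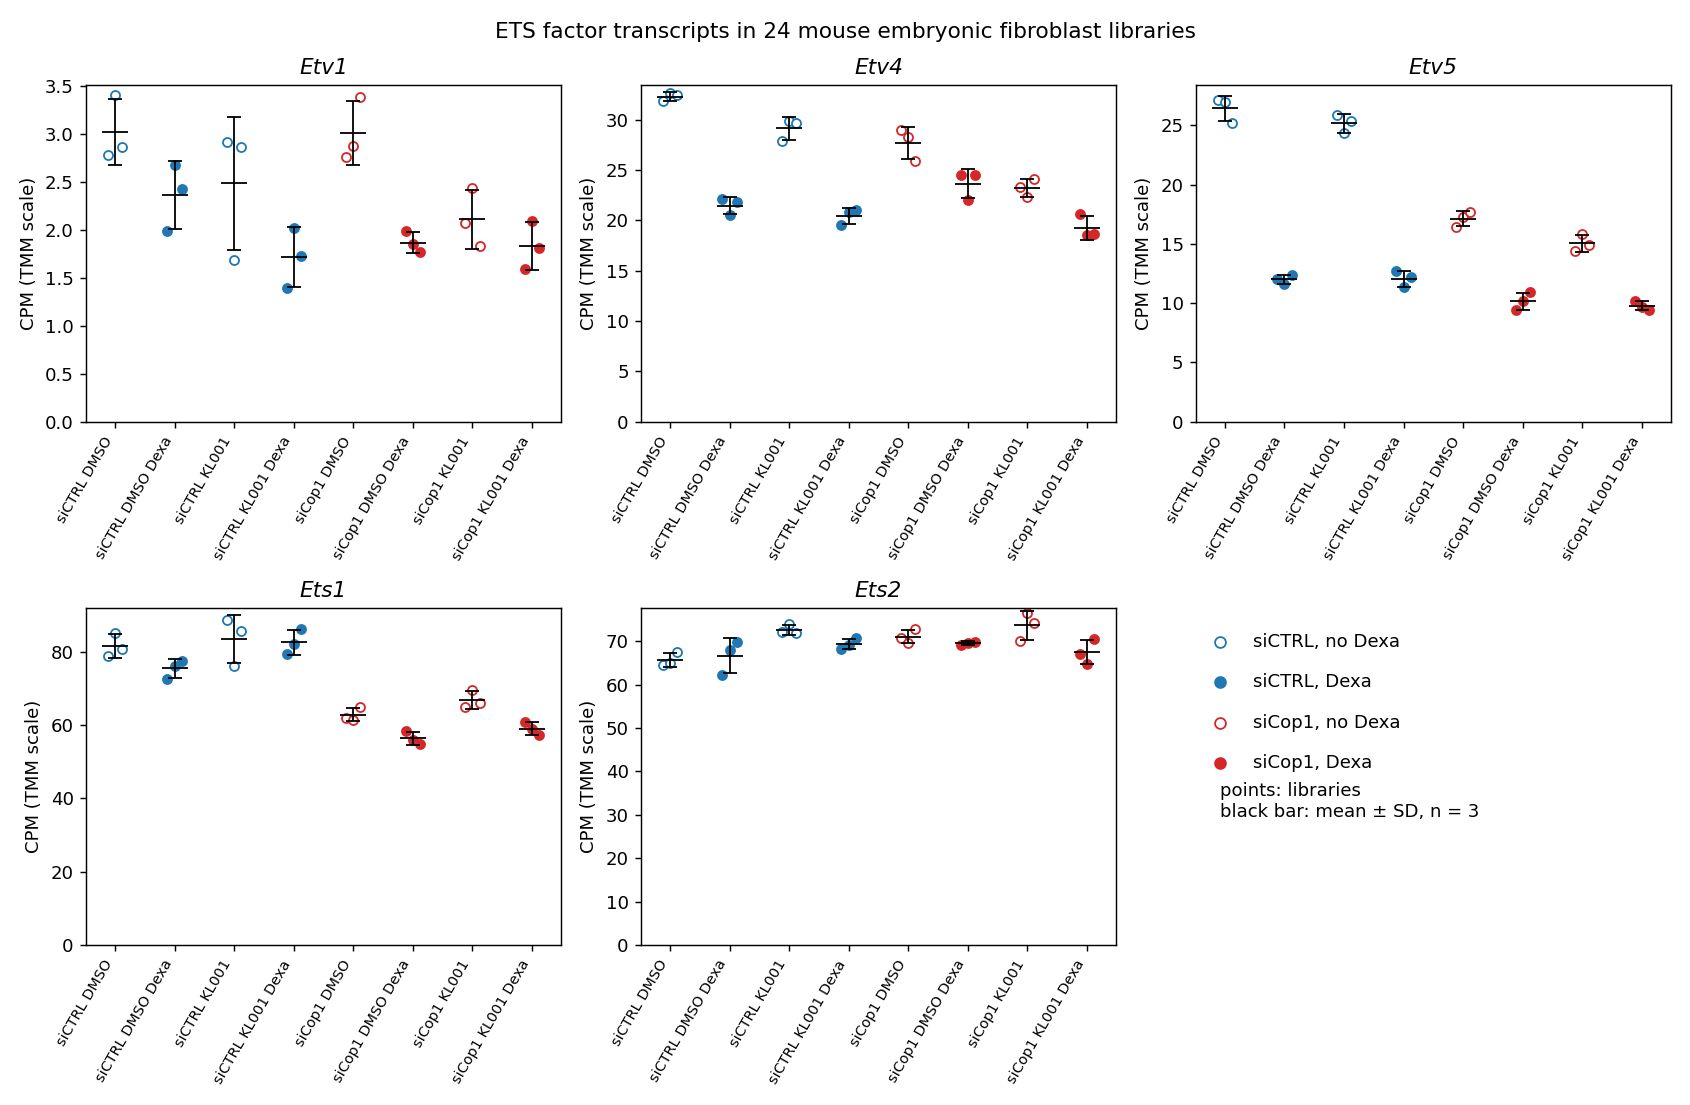
CPM of each ETS factor (vertical axis from 0) in the 24 libraries by group; circles are libraries, filled with Dexa, blue for siCTRL and red for siCop1, and black bars are mean ± SD (n = 3). Etv5 falls from 25.2 to 27.1 in siCTRL DMSO to 9.44 to 10.2 in siCop1 KL001 with Dexa, Ets1 separates by siRNA, and Ets2 stays between 62.1 and 76.5.

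Etv5, a PEA3 factor whose transcript is a common readout of FGF and ERK signalling, was lower with siCop1 and lower with Dexa wherever either was compared. In siCTRL DMSO without Dexa the 3 libraries held 27.1, 26.9 and 25.2 CPM, and with Dexa 12, 11.6 and 12.4 CPM. In siCTRL KL001 the values were 25.8, 24.3 and 25.3 CPM without Dexa and 12.7, 11.3 and 12.2 CPM with it. Dexa and no-Dexa libraries did not overlap with either compound. In siCop1 DMSO, Etv5 stood at 16.4, 17.3 and 17.7 CPM without Dexa and 9.43, 10.1 and 10.9 CPM with it. In siCop1 KL001 it stood at 14.4, 15.8 and 14.9 CPM without Dexa and 10.2, 9.71 and 9.44 CPM with it. All 6 siCop1 libraries without Dexa lay between the siCTRL libraries without Dexa and those with it. In the order of group means, neighbours overlapped in range within 3 pairs that differ only in the compound: siCTRL without Dexa, siCTRL with Dexa and siCop1 with Dexa.

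Etv4, the PEA3 factor with the highest per-length level of the 3 here, ranged less widely and was lower with Dexa in every pair of groups. It stood at 31.8, 32.6 and 32.4 CPM in siCTRL DMSO without Dexa and 22.1, 20.5 and 21.8 CPM with it. The siCTRL KL001 libraries held 27.8, 29.9 and 29.7 CPM without Dexa and 19.5, 20.8 and 21 CPM with Dexa. In both compounds the Dexa libraries lay below the others without overlap. In siCop1 DMSO the values were 28.9, 28.2 and 25.9 CPM without Dexa and 24.4, 22.0 and 24.5 CPM with it, and in siCop1 KL001 23.3, 22.3 and 24.1 CPM against 20.6, 18.5 and 18.6 CPM. The siCTRL DMSO libraries without Dexa stood above all other 21. Further down, ranges of neighbouring groups mostly overlapped, so the order of the 3 lowest groups, siCTRL DMSO with Dexa, siCTRL KL001 with Dexa and siCop1 KL001 with Dexa, is not separated by their spread.

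Etv1, the third PEA3 factor, was counted only 35 to 84 times per library, so its values carry the most counting error. Its 24 libraries ran from 1.4 to 3.41 CPM with a median of 2.08 CPM. The siCTRL DMSO libraries held 2.78, 3.41 and 2.86 CPM without Dexa and 1.98, 2.67 and 2.43 CPM with it. The siCop1 DMSO libraries held 2.76, 2.88 and 3.38 CPM without Dexa and 1.98, 1.85 and 1.77 CPM with it. Without Dexa the siCTRL and siCop1 ranges in DMSO overlapped, whereas every Dexa library in DMSO lay below every library without it for the same siRNA. In siCTRL that gap was narrow, and the change did not pass edgeR's test (adjusted p 0.158). In siCTRL KL001 replicate 2 stood apart at 1.69 CPM, next to 2.91 and 2.86 CPM; the other KL001 groups lay between 1.4 and 2.43 CPM.

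Ets1, known for roles in endothelial cells, lymphocytes and invasive fibroblasts, separated by siRNA. The 12 siCTRL libraries held 72.5 to 88.7 CPM and the 12 siCop1 libraries 54.9 to 69.7 CPM, with no overlap. In siCTRL DMSO the libraries stood at 78.9, 85.1 and 80.8 CPM without Dexa and 72.5, 76.2 and 77.6 CPM with it, and in siCop1 DMSO at 62.1, 61.5 and 64.9 CPM and 58.4, 56.1 and 54.9 CPM. Dexa libraries were lower in DMSO with either siRNA, though in siCTRL the change did not pass edgeR's test (adjusted p 0.0781). In siCTRL KL001 the values were 88.7, 76.0 and 85.8 CPM without Dexa and 79.5, 82.1 and 86.2 CPM with it, which overlap; in siCop1 KL001 they were 65.0, 69.7 and 66.1 CPM and 60.9, 59.0 and 57.3 CPM.

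Ets2, a close relative of Ets1, was nearly level. Its 24 libraries ran from 62.1 to 76.5 CPM. siCTRL DMSO without Dexa, the lowest group, held 64.6, 64.9 and 67.5 CPM, and siCop1 KL001 without Dexa, the highest, 70.1, 76.5 and 74.3 CPM. In siCop1 DMSO without Dexa the values were 70.7, 69.7 and 72.8 CPM, and in siCTRL KL001 without Dexa 72.2, 73.9 and 71.8 CPM. The remaining 4 groups, all with Dexa, overlapped one another between 62.1 and 70.7 CPM.

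siCop1 was set against siCTRL with each compound, without and with Dexa, to see what siCop1 does to the transcripts of the ligase's ETS substrates. Etv5 and Ets1 fell in all 4, Etv4 fell in both without Dexa, and Ets2 rose in 1, while Etv1 passed in none. Each log2 change comes from edgeR's quasi-likelihood test, with p-values adjusted by Benjamini-Hochberg over all 14772 genes and called below 0.05. In DMSO without Dexa 4 of 5 factors passed, where 29.4% of all genes did. In DMSO with Dexa 2 of 5 passed (31.1% of all genes), in KL001 without Dexa 3 of 5 (32.7%) and in KL001 with Dexa 2 of 5 (30.1%). Each siCTRL group without Dexa also serves the Dexa and KL001 comparisons, so comparisons share control libraries.

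In DMSO without Dexa, Etv5 fell by 0.63 on the log2 scale (SE 0.055, adjusted p 2.72e-10), to 0.648 of its control level. Ets1 fell by 0.38 (SE 0.047, adjusted p 2.77e-07) and Etv4 by 0.22 (SE 0.053, adjusted p 0.00181). Ets2 was higher by 0.11 (SE 0.041, adjusted p 0.0349), a call lost in 6 of 12 alternative settings: with no filter, with heart muscle markers as a covariate, and, with adjusted p of 0.11, 0.0857, 0.0668 and 0.135, on leaving out replicate 1 or 2 of siCTRL DMSO or replicate 1 or 3 of siCop1 DMSO. Etv1 gave a log2 change of -0.003 (adjusted p 0.992) with a 95% interval of -0.36 to 0.35, which holds the change of Etv4.

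With KL001 and no Dexa the falls were 0.74 for Etv5 (SE 0.056, adjusted p 1.27e-11), 0.33 for Etv4 (SE 0.055, adjusted p 2.74e-05) and 0.32 for Ets1 (SE 0.047, adjusted p 3.45e-06). Under Dexa the Etv5 difference was smaller: -0.24 in DMSO (adjusted p 0.00672) and -0.30 in KL001 (adjusted p 0.00103). For Ets1 it was -0.42 (adjusted p 5.63e-08) and -0.48 (adjusted p 3.85e-09). Etv4 under Dexa had log2 changes of 0.14 in DMSO (adjusted p 0.0666) and -0.09 in KL001 (adjusted p 0.296); the first passed at 0.19 (adjusted p 0.023) without siCop1 DMSO Dexa replicate 2. Ets2 values in these 3 comparisons ran from -0.04 to 0.06 and Etv1 values from -0.34 to 0.11, none past the threshold.

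Markers were also compared between the siRNAs. In DMSO without Dexa 29.4% of all genes passed. There 2 of 7 heart muscle, 3 of 10 fibroblast and 1 of 3 tested endothelial markers fell, shares close to that. The sizes of change were not alike. The median log2 change was -3.60 for heart muscle, -1.08 for endothelial and -0.08 for fibroblast markers, next to -0.01 over all genes. The endothelial sum was 2.42 to 3.32 CPM in siCTRL DMSO and 1.27 to 1.57 CPM in siCop1 DMSO. Of 3 tested neural markers 2 fell, and of 3 tested leukocyte markers 2 rose. Elsewhere 1 heart muscle marker fell in DMSO with Dexa, 1 in KL001 and 0 in KL001 with Dexa. Median log2 changes of the heart muscle markers there were -5.53, -6.87 and -2.55. Fibroblast markers went both ways in KL001 without Dexa (2 rose, 4 fell). Of 6 epithelial markers 2 rose with siCop1 in DMSO with Dexa only. In these comparisons 30.1% to 32.7% of all genes passed. The fibroblast sum was 55151 to 58515 CPM in siCTRL DMSO and 48708 to 50225 CPM in siCop1 DMSO, and the leukocyte sum 4.55 to 5.44 CPM and 6.53 to 7.81 CPM. Neural markers were lower for 2 of 3 in all 4 siCop1 comparisons, with sums of 256 to 281 CPM in siCTRL DMSO and 226 to 233 CPM in siCop1 DMSO. The part of the fibroblast, neural, endothelial, leukocyte and epithelial markers was not tested. Heart muscle sums did not overlap between the siRNAs in DMSO without Dexa (19.4 to 64.0 CPM in siCTRL, 0.967 to 3.23 CPM in siCop1). A fit with that sum as a covariate therefore cannot separate it from siRNA, and its values are given only as an alternative. With the log2 sum of the heart muscle markers as a covariate, Etv5 changed by -0.69 and Ets1 by -0.44 in DMSO without Dexa (adjusted p 6.80e-09 and 3.19e-07), Etv4 by -0.22 (adjusted p 0.0172), and Ets2 no longer passed (0.13, adjusted p 0.0634).

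**Figure D3:**
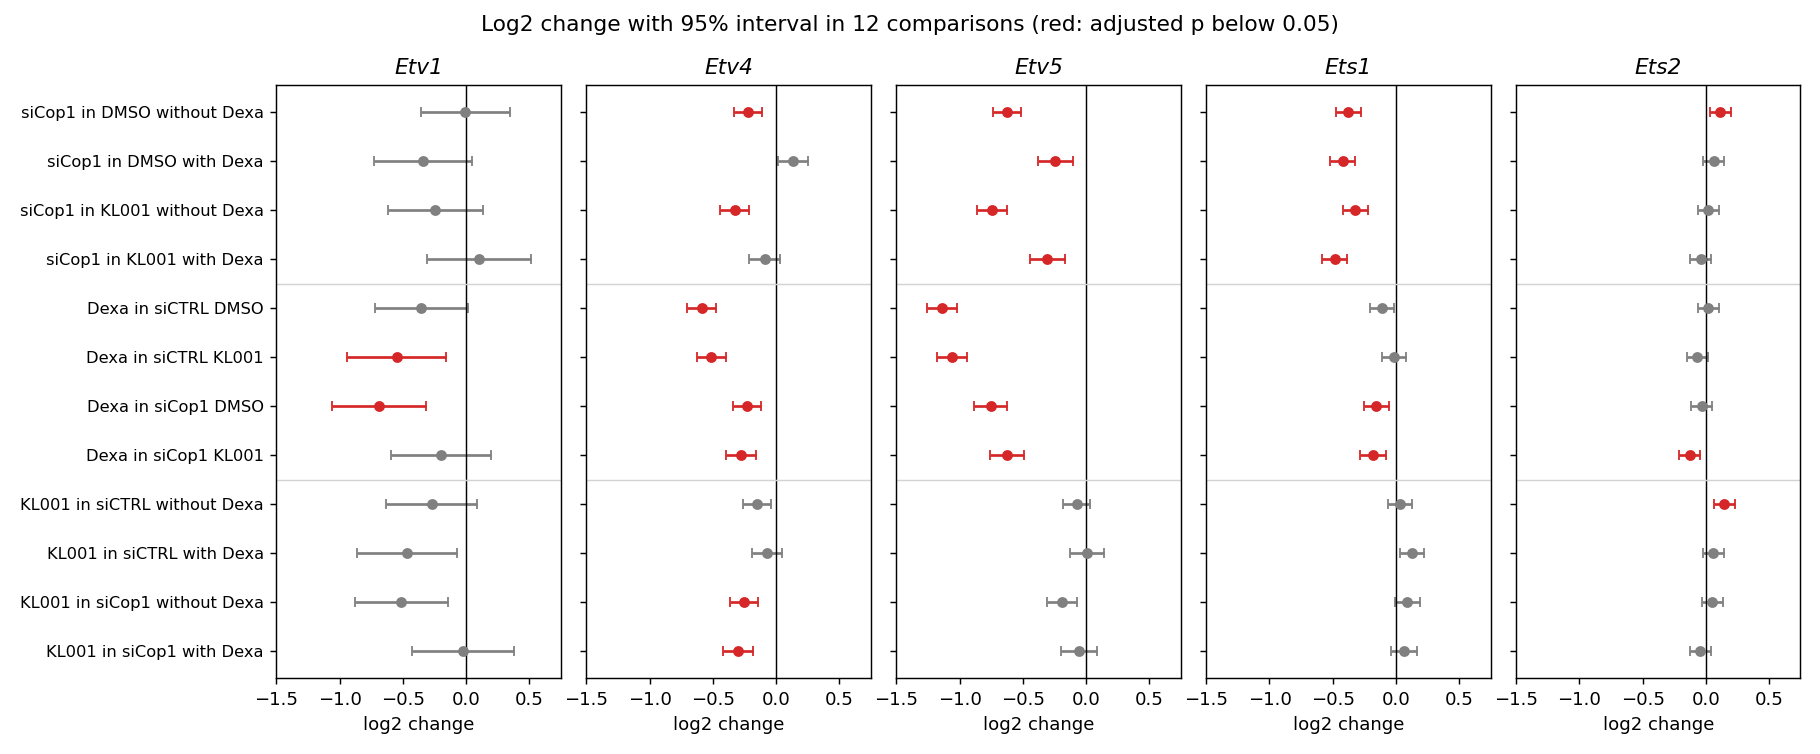
Log2 change with its 95% interval (horizontal axis) of each ETS factor in the 12 comparisons of siCop1, Dexa and KL001, 3 libraries against 3; red marks an adjusted p below 0.05. Red points for Etv4, Etv5 and Ets1 all lie left of 0, the leftmost being Etv5 with Dexa in siCTRL DMSO at -1.14.

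Dexa was compared within each siRNA and compound. All 4 genes of the check list for a glucocorticoid response rose in each of the 4 comparisons; in siCTRL DMSO Fkbp5 rose by 4.30, Tsc22d3 by 2.73, Per1 by 2.22 and Dusp1 by 0.93 on the log2 scale. Etv4 and Etv5 fell in all 4 comparisons, and no ETS factor of the 5 rose in any. The share called was 2 of 5 in siCTRL DMSO (26.8% of all genes), 3 of 5 in siCTRL KL001 (26.8%), 4 of 5 in siCop1 DMSO (23.7%) and 4 of 5 in siCop1 KL001 (24.5%).

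Etv5 fell by 1.14 in siCTRL DMSO (SE 0.058, adjusted p 8.65e-16 in edgeR's test), to 0.454 of its level without Dexa, and by 1.06 in siCTRL KL001 (SE 0.059, adjusted p 5.82e-15). With siCop1 it fell by 0.75 in DMSO (SE 0.063, adjusted p 7.97e-11) and by 0.62 in KL001 (SE 0.066, adjusted p 8.96e-09). Etv4 fell by 0.59 (SE 0.055, adjusted p 7.07e-10) and 0.51 (adjusted p 1.89e-08) in siCTRL, and by 0.23 (adjusted p 0.00216) and 0.27 (adjusted p 5.85e-04) in siCop1. Etv1 fell by 0.69 in siCop1 DMSO (SE 0.183, adjusted p 0.00529) and by 0.55 in siCTRL KL001 (SE 0.192, adjusted p 0.033), the latter lost in 6 of 12 alternative settings. Those were DESeq2 (adjusted p 0.0811), a fit of the compared groups alone (0.103), and the fits without siCTRL KL001 replicate 1 (0.162) or 3 (0.156) or siCTRL KL001 Dexa replicate 1 (0.179) or 3 (0.0787). Its values in the other 2 comparisons were -0.35 (adjusted p 0.158) and -0.20 (adjusted p 0.544).

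Ets1 fell with Dexa in siCop1 cells, by 0.15 in DMSO (adjusted p 0.0193) and 0.18 in KL001 (adjusted p 0.00559). The DMSO call was lost without siCop1 DMSO replicate 3 (adjusted p 0.098) or siCop1 DMSO Dexa replicate 2 (0.0588) or 3 (0.0911). In siCTRL its log2 changes were -0.11 in DMSO (adjusted p 0.0781) and -0.02 in KL001 (adjusted p 0.857), the first passing without siCTRL DMSO replicate 1 (adjusted p 0.0485) or with the heart muscle covariate (0.0211), and the test of the difference between siRNAs was not passed (adjusted p 0.956 and 0.503). Ets2 fell by 0.13 in siCop1 KL001 (adjusted p 0.0201), a call lost without siCop1 KL001 replicate 2 (adjusted p 0.127) or 3 (0.0628) or siCop1 KL001 Dexa replicate 1 (0.0597) or 2 (0.139). The neural marker sum was higher with Dexa as given above, with 1 of 3 tested members called; its part in these results was not tested.

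Whether the siCop1 difference itself depended on Dexa was tested as the siCop1 change with Dexa minus the change without it. Etv5 differed in both compounds and Etv4 in DMSO. In DMSO 2 of 5 factors passed, where 0.67% of all genes did, and in KL001 1 of 5, where 0.562% did. The Etv5 difference was 0.39 in DMSO (SE 0.087, adjusted p 0.0241) and 0.44 in KL001 (SE 0.089, adjusted p 0.0134). The Etv4 difference was 0.36 in DMSO (SE 0.078, adjusted p 0.0176) and 0.24 in KL001 (adjusted p 0.316). Read the other way, siCTRL cells lost more Etv5 with Dexa than siCop1 cells, from a higher start, and the siRNA groups lay closer together under Dexa. Etv1, Ets1 and Ets2 did not pass in either compound. These calls were not stable: in DMSO the Etv5 call was lost in 10 of 18 settings and the Etv4 call in 6 of 18. For Etv5 these were DESeq2 (adjusted p 0.0963), the compared groups alone (0.0551), and fits without replicate 1 or 2 of siCTRL DMSO (0.0611, 0.0839), of siCTRL DMSO Dexa (0.0696, 0.11) or of siCop1 DMSO (0.0892, 0.0507), or without replicate 2 or 3 of siCop1 DMSO Dexa (0.065, 0.132). For Etv4 they were fits without siCTRL DMSO replicate 2 (adjusted p 0.0666) or 3 (0.0666), siCTRL DMSO Dexa replicate 2 (0.096), siCop1 DMSO replicate 3 (0.0721), or siCop1 DMSO Dexa replicate 1 (0.0978) or 3 (0.0765). In KL001 the Etv5 call was lost without siCop1 KL001 Dexa replicate 1 (adjusted p 0.0552) or siCTRL KL001 Dexa replicate 2 (0.0688). The direction of all 3 differences held in each of the 18 settings.

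**Figure D4:**
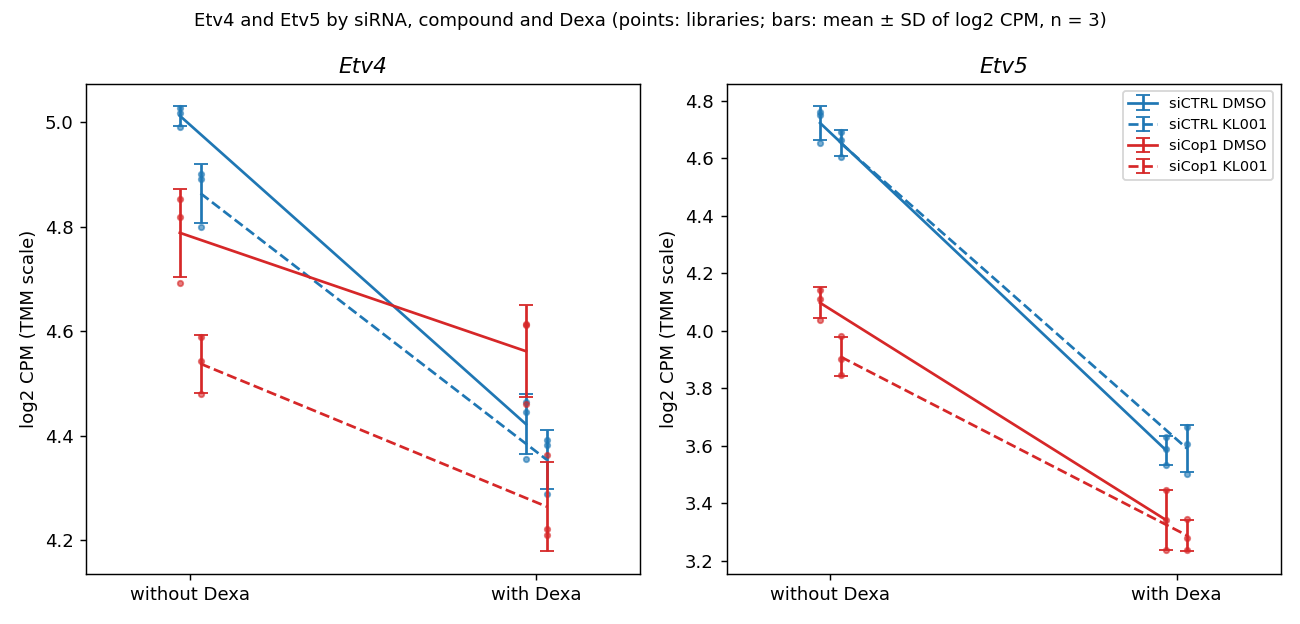
Log2 CPM (vertical axes, which do not start at 0) of Etv4 and Etv5 without and with Dexa; points are libraries, bars mean ± SD of log2 CPM (n = 3), blue siCTRL, red siCop1, dashed KL001. The blue lines fall more steeply than the red, by 1.14 against 0.75 for Etv5 in DMSO, and the Etv4 lines for DMSO cross.

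KL001 was compared within each siRNA, without and with Dexa, and moved few of the factors. In siCTRL without Dexa 1 of 5 passed (6.73% of all genes did): Ets2 was higher by 0.15 (SE 0.041, adjusted p 0.0262). That call was lost with the compared groups alone (adjusted p 0.176) and without siCTRL DMSO replicate 1 (0.0863) or 2 (0.109) or siCTRL KL001 replicate 2 (0.0808). In siCTRL with Dexa 0 of 5 passed in edgeR's test (10.6% of all genes did), where 2 of them, Etv1 and Ets1, had an unadjusted p below 0.05 and DESeq2 called 0. Etv4 was the factor that changed in siCop1 cells, where 1 of 5 passed without Dexa (4.09% of all genes did) and 1 of 5 with it (5.46%). It fell there by 0.25 (SE 0.055, adjusted p 0.00444) without Dexa and 0.30 (SE 0.059, adjusted p 0.0013) with it. In siCTRL the Etv4 values were -0.15 (adjusted p 0.0984) and -0.07 (adjusted p 0.523). The siCop1 difference did not depend on KL001 for any factor at this threshold, with 0 of 5 passing without Dexa (0% of all genes) and 0 of 5 with Dexa (0.0677%). For Etv4 that difference was -0.10 (adjusted p 0.879) and -0.23 (adjusted p 0.514, 95% interval -0.40 to -0.06). The KL001 change also did not pass a test of dependence on Dexa in siCTRL (0 of 5, 0% of all genes) or siCop1 (0 of 5, 0.0677%). In these 4 tests by edgeR, DESeq2 also called 0 of 5, and 1 factor, Etv4 for siCop1 and KL001 with Dexa, had an unadjusted p below 0.05. Over all genes, the 2 tests at 0% had 982 and 888 genes at an unadjusted p below 0.05, and DESeq2 called 14 and 2.

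Of 22 genes listed as ERK feedback genes and ETS targets, 14 to 17 rose and 0 to 4 fell in the siCop1 comparisons, in all 4 of which the Etv5 and Ets1 transcripts fell. In DMSO without Dexa 17 rose and 3 fell, where 29.4% of all genes passed in either direction, with a median log2 change of 0.38 next to -0.01 over all genes. With Dexa 15 rose and 0 fell (median 0.42; 31.1% of all genes passed), in KL001 14 rose and 3 fell (0.34; 32.7%), and in KL001 with Dexa 14 rose and 4 fell (0.33; 30.1%). Among the listed genes called in DMSO without Dexa, the matrix metalloproteinases Mmp10, Mmp13 and Mmp3 changed most, the first 2 from very low levels. Mmp13, a collagenase, went from 0.450 ± 0.218 to 2.58 ± 0.0173 CPM (SD, n = 3; log2 change 2.51) and Mmp3, stromelysin, rose by 1.98. Mmp10 was counted 1 to 4 times per library in siCTRL and 16 to 22 times in siCop1. Fosl1, an AP-1 subunit induced by ERK, rose from 11.9 ± 0.741 to 29.8 ± 0.460 CPM (log2 change 1.32). In KL001 without Dexa, Mmp10 and Mmp13 did not pass, at 0.59 and 0.43.

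Negative feedback genes of the ERK pathway split; the following were chosen after their values were seen. Dusp6, an ERK phosphatase, rose from 28.7 ± 1.51 to 54.1 ± 2.32 CPM in DMSO without Dexa (log2 change 0.91), and by 1.06, 0.79 and 0.92 in the other 3 siCop1 comparisons. Spry2, an inhibitor of receptor tyrosine kinase signalling, rose by 0.39. Its paralogs went the other way: Spry4 fell by 0.51 without Dexa and by 0.72 in KL001, and Spry1 fell by 0.29 and 0.38. The Spry1 call in DMSO was lost on leaving out replicate 2 of siCTRL DMSO (adjusted p 0.145) or replicate 2 of siCop1 DMSO (0.0589) or 3 (0.0601). With Dexa and DMSO, Spry4 (-0.15) and Spry1 (-0.02) did not pass. The number of the 22 genes that fell in DMSO without Dexa ran from 1 to 3 over the alternative settings.

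With Dexa 15 to 17 of the 22 genes fell and 1 or 2 rose, in comparisons in which Etv4 and Etv5 also fell. In siCTRL DMSO 16 fell and 1 rose, where 26.8% of all genes passed, with a median of -0.40 next to -0.01 over all genes, and in siCTRL KL001 17 fell and 1 rose (-0.34; 26.8%). In siCop1 the counts were 15 lower and 2 higher in DMSO (-0.29; 23.7%), and 16 lower and 1 higher in KL001 (-0.35; 24.5%). Dusp4, a nuclear ERK phosphatase, fell by 1.76, from 2.11 ± 0.209 to 0.619 ± 0.206 CPM in siCTRL DMSO. Phlda1, an ERK-induced gene, fell by 1.29 and Egr1, an immediate early factor, by 0.98. Mmp9 (-0.73), a gelatinase, kept its call in 5 of 12 settings, losing it with DESeq2 (adjusted p 0.0635) and without replicate 1 or 3 of siCTRL DMSO (0.118, 0.16) or of siCTRL DMSO Dexa (0.148, 0.133), among others. Dusp5, an ERK phosphatase, was the gene that rose, by 0.72. With KL001 the list counts were 2 higher and 0 lower in siCTRL, where 6.73% of all genes passed, 4 and 2 in siCTRL with Dexa (10.6%), 0 and 3 in siCop1 (4.09%), and 0 and 5 in siCop1 with Dexa (5.46%).

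**Figure D5:**
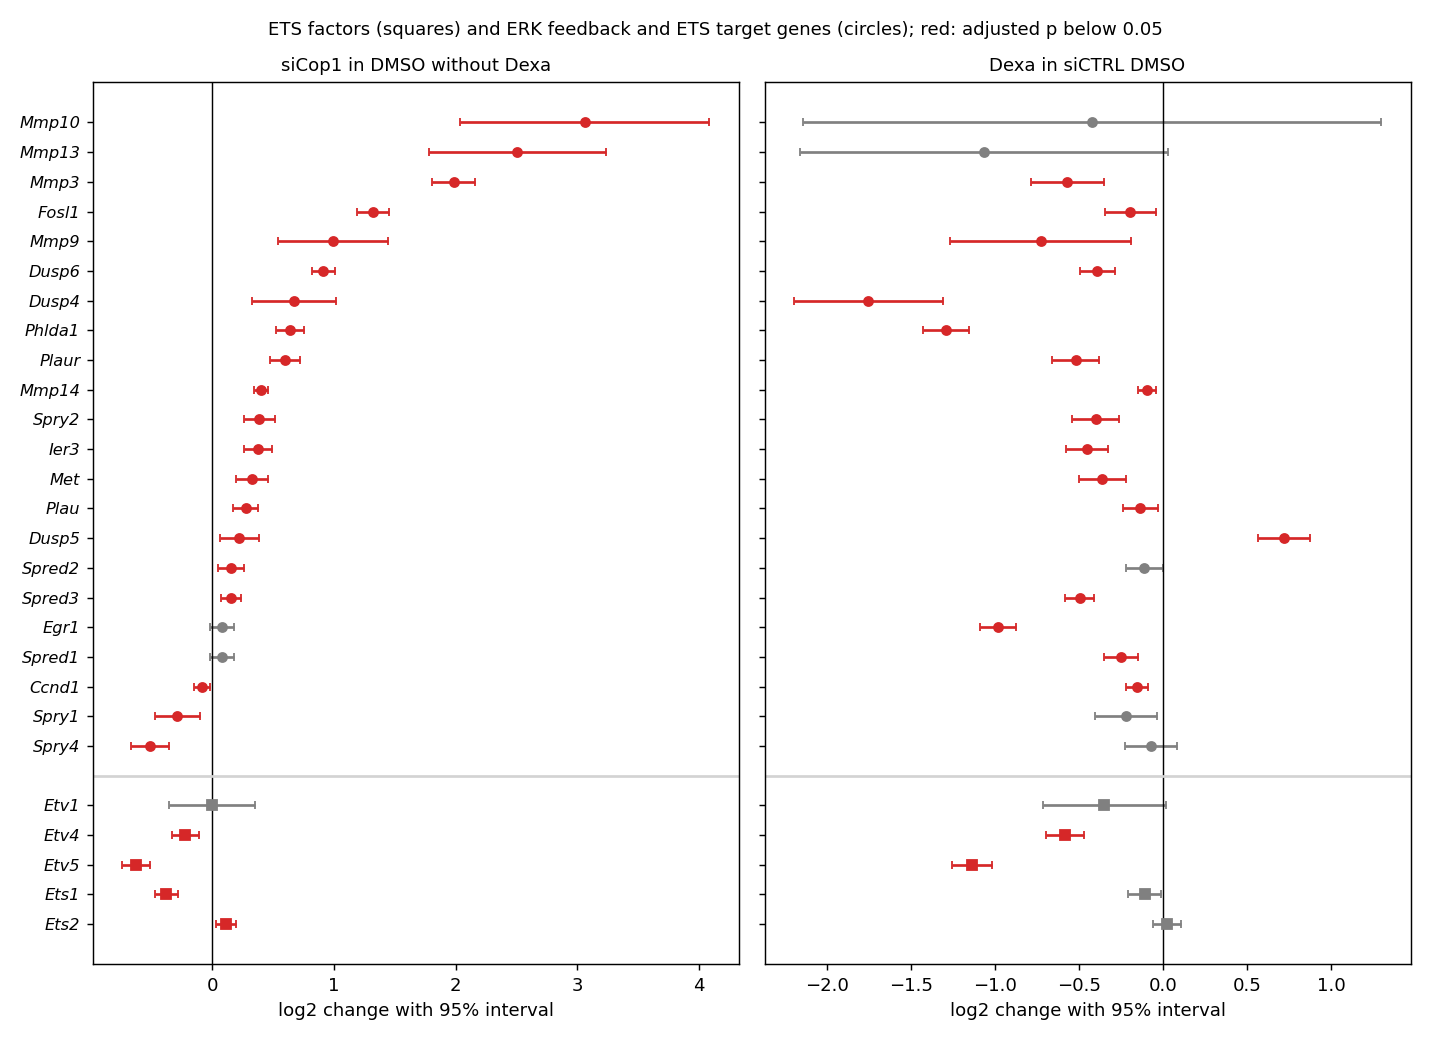
Log2 change with 95% interval (horizontal axes) of 22 ERK feedback and ETS target genes (circles) and the 5 ETS factors (squares), for siCop1 in DMSO without Dexa and for Dexa in siCTRL DMSO; red marks an adjusted p below 0.05. In the left plot 17 circles are red to the right of 0, while Etv4, Etv5 and Ets1 lie to its left; in the right plot 16 circles are red to the left of 0.

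Of 14 genes acting upstream of the PEA3 transcripts, all tested, 0 rose and 4 fell with siCop1 in DMSO without Dexa, a share close to the 29.4% of all genes that passed. These were the kinase Map2k1 (-0.33), the receptors Fgfr2 (-0.29) and Egfr (-0.19), and the kinase Mapk3, ERK1 (-0.15). Egfr did not pass without siCTRL DMSO replicate 2 (adjusted p 0.0608) or 3 (0.0874). The other comparisons of siCop1 gave 1 higher and 5 lower in DMSO with Dexa (31.1% of all genes passed), 1 and 4 in KL001 (32.7%), and 1 and 5 in KL001 with Dexa (30.1%). Cic, which encodes Capicua, had log2 changes of 0.09 to 0.14 with siCop1 and passed in 3 of 4 comparisons. Its DMSO call with Dexa was lost without siCop1 DMSO Dexa replicate 1 (adjusted p 0.0652), and its KL001 call without Dexa was lost with the compared groups alone (0.0795) and without siCTRL KL001 replicate 3 (0.162) or siCop1 KL001 replicate 1 (0.0746). With Dexa in siCTRL DMSO 5 rose and 2 fell (26.8% of all genes passed); Fgfr2 rose by 0.59, Egfr by 0.27 and Fgfr1 by 0.25, and Cic fell by 0.14. Map2k1 had a value of -0.02 there.

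Of the 21 other ETS family genes, 14 were tested; Etv2, Fev, Fli1, Spdef, Spi1, Spib and Spic were not. With siCop1 in DMSO without Dexa 2 rose and 2 fell, where 29.4% of all genes passed. Elk3 rose by 0.32 and Elk1 by 0.16, both ternary complex factors phosphorylated by ERK, and Elf4 fell by 0.16 (adjusted p 0.0581 without siCTRL DMSO replicate 2). Erg fell by 0.30, a call lost with DESeq2 (adjusted p 0.0756), with the heart muscle covariate (0.202), and on leaving out replicate 1 of siCTRL DMSO (0.0969) or replicate 1 (0.0535) or 3 (0.0852) of siCop1 DMSO. With Dexa in siCTRL DMSO 5 of the 14 fell and 0 rose, where 26.8% of all genes passed; in the alternative settings 2 to 4 fell, so the count is near that background. Erg fell by 0.64 there and Erf, an ETS repressor controlled by ERK, by 0.21. Erg also passed with KL001 in all 4 comparisons, at -0.41, -0.74, -0.54 and -1.04; the first was lost without siCTRL KL001 replicate 3 (-0.37, adjusted p 0.0538). Among the 10 genes of the ligase and its adaptors, 1 rose and 4 fell with siCop1 in DMSO without Dexa, where 29.4% of all genes passed. Trib1 (0.27) rose and Trib3 (-0.83) fell, both pseudokinases that bind Cop1, and Rfwd2 fell. Of the subunits that work with Cop1, Ddb1 fell by 0.12 and Det1 by 0.17 (adjusted p 0.0397). The Det1 call was kept in 5 of 12 settings: it was lost with median-of-ratios scaling (adjusted p 0.0545), no filter (0.15), DESeq2 (0.152) and the compared groups alone (0.1), and on leaving out replicate 2 of siCTRL DMSO (0.255) or replicate 2 (0.235) or 3 (0.0519) of siCop1 DMSO.

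Genes most alike in pattern were named by Pearson's r of log2 CPM over the 24 libraries, among about 10192 genes of at least 5 CPM. Since the libraries share 8 groups, such an r mostly reflects group means. Etv5 was nearest to Rspo3 (r = 0.98), a secreted Wnt pathway agonist, which changed by -0.81 with siCop1 in DMSO without Dexa and by -1.55 with Dexa in siCTRL DMSO; next was Lasp1 (0.97). Etv4 was nearest to Spon2 (0.95) and Spats2l (0.94), and Ets1 to Prdm4 and Rhbdd1 (both 0.97). Over libraries, Etv1 (Mgat3 and Bicc1, both 0.82) and Ets2 (Dis3 at 0.76 and Rbl1 at 0.75) had no such close partner. Over the 8 group means r reached 0.97 for Etv1 with Pigp and 0.97 for Ets2 with Rae1. After the group means were removed, r was 0.35 for Etv5 and Rspo3 and 0.11 for Etv4 and Spon2, but 0.77 for Ets1 and Prdm4. Between the factors, Etv4 and Etv5 had r = 0.88, and -0.15 within groups, whereas Etv1 and Ets1 had 0.30, and 0.76 within groups, with siCTRL KL001 replicate 2 low in both.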

How the data were processed

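RNA was measured in 24 libraries of mouse embryonic fibroblasts, 8 groups of 3. Per the labels' protocols, RNA was column-purified and made into stranded mRNA libraries, which were pooled over 3 lanes of short single reads. The submitters' processing notes name bcl2fastq 1.8.4, STAR 2.4.5a, featureCounts, Subread 1.4.6-p3, DESeq2, Picard 1.126 and build GRCm38, with no role or order. The authors deposited raw counts per gene symbol, used here as they stand; a normalized table was not used, and 0 sample columns were left out. Whether strand was used in counting, and how reads that fit more than 1 ETS paralog were assigned, is not given in the sources used here.

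Counts were fitted with edgeR 4.0.16 (R 4.3.3, limma 3.58.1; TMM scaling, filterByExpr with a minimum count of 10 and a total of 15, robust quasi-likelihood), with 1 mean per group over all 24 libraries. The common biological coefficient of variation was 3.71%. There were 12 comparisons of groups and 6 tests of differences between them, two-sided, with Benjamini-Hochberg adjustment over 14772 genes. SEs were taken from the log2 change and its F statistic. Replicates were checked: none were identical, and each pair differed by more than counting noise (chi-square per degree of freedom 1.57 to 8.54). Depth, 21409988 to 27875023 counts per library, limits Etv1 most.

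The factors, the gene lists and the rules were chosen with earlier results of these data known. Named genes are the 5 factors, Rfwd2, the 2 genes of highest Pearson's r with each factor (log2 CPM, prior count 2, mean of at least 5 CPM), and up to 4 called genes per list with the largest change for siCop1 in DMSO without Dexa and for Dexa in siCTRL DMSO. Spry1, Spry2, Spry4, Dusp5, Dusp6, Ccnd1 and Cic were added after their values were seen. Gene positions and merged exon lengths come from the GENCODE annotation of GRCm38, promoters from RefSeq (GRCm38.p6), and motifs were searched on both strands.

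Labels share replicate numbers. Same-numbered libraries deviated together, with every correlation over 0.1, in 1 of 12 comparisons (Dexa in siCTRL DMSO, 0.194 to 0.538). For Dexa in siCTRL KL001 each library correlated best with its same-numbered partner, though the correlations, 0.0891 to 0.233, were not all over 0.1. A replicate block was therefore an alternative only. Further alternatives were median-of-ratios scaling, no filter, DESeq2 1.42.0, a fit of the compared groups alone, leaving out each library and, added after seeing the data, the heart muscle marker sum as a covariate. The scripts were tested on simulated data. Marker lists were fibroblast, endothelial, leukocyte, epithelial, heart muscle and neural; leukocyte markers summed to between 4.40 and 7.81 CPM and epithelial markers to between 2.88 and 44.8 CPM.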

Additional observations from a re-analysis of the deposited data

Results flagged for a closer look

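In 8 results, among the 5 factors and the listed genes, a change differed between 2 conditions by a test of the difference itself. The test was edgeR's quasi-likelihood test of an interaction. Of all genes, 0.67% passed it for siCop1 by Dexa in DMSO, 0.562% in KL001, and 0.0677% for siCop1 by KL001 with Dexa. For Etv4 the siCop1 change with Dexa minus that without was 0.36 in DMSO (SE 0.078, adjusted p 0.0176 in edgeR). For Etv5 it was 0.39 in DMSO (SE 0.087, adjusted p 0.0241) and 0.44 in KL001 (SE 0.089, adjusted p 0.0134). As given above, these calls of Etv4 and Etv5 were not stable over the alternative settings.

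Among the listed genes, Dusp5, an ERK phosphatase, had a siCop1 change that was lower with Dexa than without it by 0.52 in KL001 (log2 difference -0.52, SE 0.103, adjusted p 0.0086). For Egr1, an immediate early factor, that difference was -0.32 in KL001 (SE 0.074, adjusted p 0.0372). Fkbp5, a gene induced through the glucocorticoid receptor, had differences of -0.76 in DMSO (SE 0.048, adjusted p 2.06e-11) and -0.64 in KL001 (SE 0.048, adjusted p 1.01e-09): it rose with Dexa by 4.30 in siCTRL DMSO and by 3.54 in siCop1 DMSO. Ccnd1, cyclin D1, had a siCop1 change with Dexa that differed between KL001 and DMSO by -0.25 (SE 0.045, adjusted p 0.0234). The differences of these listed genes were not followed over the alternative settings. No group of 4 or more libraries exists here, so single libraries were not tested for standing apart.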

How the results depend on the processing

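The 5 factors gave 90 values, recomputed 1257 times over the alternatives; DESeq2 gave no adjusted p for 3 further values. Of 30 called values 22 held in every alternative run, and of 60 uncalled values 58 stayed uncalled. The replicate block changed no call of a factor and no count of factors called; in DMSO without Dexa it gave 4, as did the fit without it. In 23 recomputed values the sign changed, in each case between values that did not pass. For Etv1 with siCop1 in DMSO without Dexa these were 0.0079 with median-of-ratios scaling, 0.0056 with no filter, 0.0074 with DESeq2 and 0.0082 with the compared groups alone, and leaving out 1 library gave -0.10 to 0.10. For Etv5 with KL001 in siCTRL with Dexa the heart muscle covariate gave -0.0020, and leaving out 1 library -0.030 to 0.050. Ranges over left-out libraries that crossed 0 were -0.0049 to 0.085 for Ets2 and Dexa in siCTRL DMSO, -0.079 to 0.029 for Ets1 and Dexa in siCTRL KL001, -0.011 to 0.10 for Ets1 and KL001 in siCTRL without Dexa, and -0.0088 to 0.053 for Ets2 and siCop1 in KL001 without Dexa. They were -0.025 to 0.23 for Etv1 and siCop1 in KL001 with Dexa, and -0.13 to 0.070 for Etv1 and KL001 in siCop1 with Dexa. For tests of differences they were -0.0068 to 0.10 (Ets1, siCop1 by KL001 without Dexa), and -0.10 to 0.00044 (Etv4) and -0.049 to 0.0045 (Ets1) for KL001 by Dexa in siCop1.

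The number of factors called for KL001 in siCTRL without Dexa went from 1 to 0 with the compared groups alone and ran from 0 to 1 over left-out libraries. For the siCop1 by Dexa difference in DMSO it went from 2 to 1 with DESeq2 and with the compared groups alone, and ran from 0 to 2 over left-out libraries; in KL001 it ran from 0 to 1. The cause was not tested. Without the filter, the number of all genes called for siCop1 by Dexa went from 99 to 230 in DMSO and from 83 to 156 in KL001. It went from 0 to 61 and from 10 to 59 for siCop1 by KL001 without and with Dexa, and from 0 to 133 and from 10 to 43 for KL001 by Dexa in siCTRL and siCop1. With the compared groups alone it went from 83 to 52 for siCop1 by Dexa in KL001, from 10 to 24 for KL001 by Dexa in siCop1, and for KL001 from 994 to 225 in siCTRL without Dexa, from 604 to 950 in siCop1 without Dexa and from 807 to 1435 in siCop1 with Dexa. DESeq2 gave 25 for siCop1 by KL001 with Dexa, where the replicate block gave 5; for KL001 by Dexa in siCop1 the block and median-of-ratios scaling each gave 5. Left-out libraries gave as few as 928 for KL001 in siCTRL with Dexa (1560), 653 without Dexa and 502 in siCop1 with Dexa, 43 for siCop1 by Dexa in KL001, 2 for siCop1 by KL001 with Dexa and 1 for KL001 by Dexa in siCop1. No count of all genes for siCop1 or Dexa alone moved by over 1.5 times in the alternatives run. By group means, in place of libraries, the genes most like each factor were Pigp (Etv1), Spats2l (Etv4), Ptk7 (Etv5), Dennd4a (Ets1) and Rae1 (Ets2), so 1 of 5 first-named genes, Spats2l, had also been among the first 2. Depth limits Etv1, counted 35 to 84 times per library.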
